A study of Mus musculus with 28 samples.

Results

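Fibroblast activation and progenitor surface markers were examined in tail tendons of Fosl-2(Tg) mice, a transgenic model of systemic sclerosis, at an early and an established stage of tendon fibrosis. The set comprised 10 of the 25719 genes in the count files and is given by gene name: *Pdpn*, *Fap*, *Vcam1*, *Thy1*, *Pdgfra*, *Cd248*, *Cd34*, *Ly6a*, *Pi16* and *Dpp4*. All 10 passed the filter on low counts in every comparison. Bulk RNA-sequencing had been carried out on homogenates of tail tendon fascicles, with 1 library per mouse and 28 mice in all. The early cohort held 7 WT and 8 Fosl-2(Tg) mice aged 6 to 8 weeks, and the established cohort held 6 WT and 7 Fosl-2(Tg) mice older than 14 weeks. All were on a C57BL/6 background. Fosl-2(Tg) mice carry the murine *Fosl2* gene, with eGFP behind it, at a random site of the genome and under the MHC class I promoter H2Kb, which is not specific to fibroblasts. WT mice were nontransgenic animals of the same breeding. All 15 early mice were male, while the 13 established mice comprised 11 females and, in each genotype, 1 male, so that stage and sex cannot be told apart.

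The 10 genes encode surface or secreted proteins by which fibroblasts are sorted and staged. Podoplanin (*Pdpn*), fibroblast activation protein (*Fap*), vascular cell adhesion molecule (*Vcam1*) and Thy-1 (*Thy1*, CD90) are used as marks of activated or inflammatory fibroblasts, the PDGF receptor alpha (*Pdgfra*) and endosialin (*Cd248*) as marks of fibroblasts and perivascular stroma at large, and *Cd34*, *Ly6a* (Sca-1), *Pi16* and *Dpp4* (CD26) as marks of adventitial and interstitial progenitor fibroblasts. None is particular to one cell type. Endothelial cells can carry CD34, Sca-1 and VCAM-1, lymphatic endothelium carries podoplanin, and T cells carry Thy-1 and CD26. In tendon, such cells lie mostly in the sheath and between fascicles, whereas the tenocytes inside the fascicle are marked by *Scx*, *Tnmd* and type I collagen genes.

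Libraries held 9645598 to 66894396 counts on genes. *Fosl2* itself, counted from the endogenous gene and the transgene alike, overlapped between the genotypes in both cohorts. It lay at 58.8 to 136 CPM in early WT and 63.4 to 156 CPM in early Fosl-2(Tg) tendons, and at 78.1 to 169 CPM in established WT and 121 to 160.1 CPM in established Fosl-2(Tg) tendons. On the log2 scale the genotypes differed in *Fosl2* by 0.20 early (FDR = 0.918) and by 0.38 in the established cohort (SE 0.15, FDR = 0.141 by edgeR). CPM stands for the count of a gene scaled to a common library size, with TMM factors over all 28 libraries. All 10 tenocyte markers averaged at least 1 CPM in every group. All 8 skeletal muscle and all 8 macrophage markers did so too, so this floor does not set the tissue apart. Of 9 lymphocyte markers, none reached a mean of 1 CPM in any group, and their sum lay between 0.964 and 2.70 CPM in every mouse, with the T cell marker *Cd3d* at 0 in every library of 3 of the 4 groups. In such bulk samples, fewer cells of a type and less RNA per cell cannot be told apart.

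Levels of the 10 genes were first set in order within each group. Compared between genes per kilobase of annotated exons, *Thy1*, *Ly6a* and *Pi16* had the highest mean levels in early WT tendons, at 51.2 ± 7.37, 41.9 ± 16.6 and 24.6 ± 8.18 CPM per kb (SD, n = 7). In established WT tendons the same 3 genes led in another order, with *Pi16* at 40.4 ± 25.8, *Thy1* at 35.5 ± 6.34 and *Ly6a* at 30.2 ± 7.76 CPM per kb (SD, n = 6), and the steps between them were smaller than their SD. *Cd248*, *Pdgfra* and *Cd34* formed the middle, at 18.3, 10.97 and 10.9 CPM per kb in early WT tendons. The length taken was that of all annotated exons of a gene together, from 2605 bases (*Cd248*) to 12310 bases (*Pdgfra*), and the order depends on it. Before division by length, *Cd34* averaged 130 CPM and *Cd248* 47.7 CPM in early WT tendons. The lowest was *Vcam1* in all 4 groups, at 1.06 to 2.08 CPM per kb, and its distance to the next gene was larger than the SD in each group. In established Fosl-2(Tg) tendons *Thy1* was in place 5, at 15.9 ± 9.18 CPM per kb (SD, n = 7), while *Pdgfra* was in place 3, at 19.7 ± 4.74 CPM per kb. Neighbours in that order, apart from *Dpp4* above *Vcam1*, did not differ beyond their SD.

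**Figure D1:**
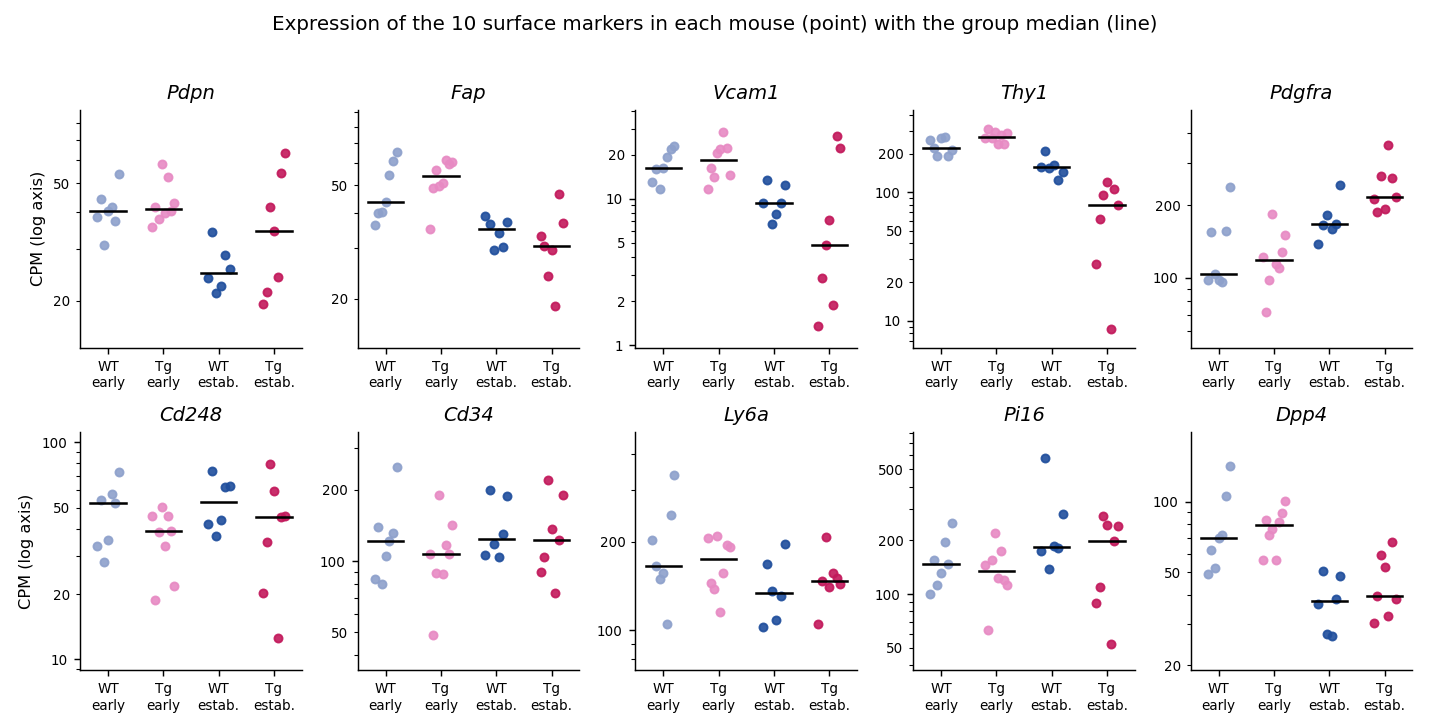
CPM (log axis) of each of the 10 genes in every mouse (points), by genotype and stage, with the group median as a line; Tg stands for Fosl-2(Tg) and estab. for established. In *Thy1*, the 7 established Fosl-2(Tg) mice lie between 8.66 and 120.4 CPM, below all 6 established WT mice; the other 9 genes overlap between the genotypes in both cohorts.

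The early cohort answered whether the markers differ between the genotypes before the established phenotype. None of the 10 genes passed an FDR of 0.05 (edgeR's quasi-likelihood test, Benjamini-Hochberg adjustment over 15138 genes), where 0.0396% of all genes did, and DESeq2 called none either. Log2 fold changes of Fosl-2(Tg) against WT lay between -0.37 and 0.25, with FDRs from 0.759 to 0.985. In 4 of the 10 genes the fold change was above 0, against 47.3% of all genes, and in none did the genotypes separate, against 0.0528% of all genes.

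*Thy1*, a GPI-anchored glycoprotein of fibroblasts and T cells, was the 1 gene of the set with an unadjusted p under 0.05 early, against 1.96% of all genes that were higher at that level. It lay at 191 to 269 CPM in WT (median 222) and at 237 to 311 CPM in Fosl-2(Tg) tendons (median 272). The upper WT mice and the lower Fosl-2(Tg) mice overlapped. Its log2 fold change was 0.25 (SE 0.10, 95% confidence interval 0.04 to 0.45, unadjusted p = 0.0221, FDR = 0.759 by edgeR). *Cd248* had the lowest fold change, -0.37 (SE 0.23, FDR = 0.846 by edgeR), from a median of 52.5 CPM in WT to 38.9 CPM in Fosl-2(Tg) mice. The early WT group held 1 mouse, replicate 7, with the highest value of the group for 9 of the 10 genes, all but *Thy1*. Without this mouse the fold change of *Cd34* went from -0.22 to 0.0051 and that of *Pdgfra* from -0.13 to 0.051.

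In the established cohort, likewise, none of the 10 genes passed an FDR of 0.05 by edgeR or by DESeq2, where 6.51% of 15862 genes did by edgeR. This share of all genes was 12.1% by DESeq2 and ran from 2.26% to 7.43% with 1 mouse left out, moving by over 1.5 times in its count without Fosl-2(Tg) replicates 1, 2 or 3 or WT replicates 1, 2, 4, 5 or 6. Fold changes spread more widely than early, from -1.15 (*Thy1*) to 0.51 (*Pdpn*) on the log2 scale, with a median of -0.05 against 0.01 over all genes. At an unadjusted p under 0.05, *Thy1* was lower and *Pdgfra* higher in Fosl-2(Tg) tendons, against 13.1% and 13.5% of all genes in these directions. The 95% confidence intervals of the other 8 genes spanned 0.

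*Thy1* (ENSMUSG00000032011, chromosome 9 of GRCm39, 43954332 to 43959880, plus strand) had 125 to 210.0 CPM in established WT mice (median 157). The 7 Fosl-2(Tg) mice lay at 8.66 to 120.4 CPM (median 80.3). Every Fosl-2(Tg) mouse was below every WT mouse, which was so, in this direction, for 2.33% of all genes. *Thy1* was the 1 gene of the set whose genotypes did not overlap. The log2 fold change was -1.15 (SE 0.42, 95% confidence interval -2.06 to -0.25, unadjusted p = 0.0163), with an FDR of 0.106 by edgeR and 0.0764 by DESeq2, above the threshold in both. Spread within the Fosl-2(Tg) group was far larger than in WT, since the highest mouse had 13.9 times the level of the lowest, against 1.67 times among WT mice. The lowest, replicate 5, was the male at 8.66 CPM, and the next, replicate 1, a female at 27.8 CPM. Among the 11 females the genotypes stayed apart, with 5 WT mice at 143 to 210.0 CPM and 6 Fosl-2(Tg) mice at 27.8 to 120.4 CPM. Here the log2 fold change was -1.01 (SE 0.28, FDR = 0.0691 by edgeR). *Thy1* passed the threshold with sex as a covariate (-1.38, SE 0.38, FDR = 0.0422 by edgeR) and with all 28 libraries in 1 fit (FDR = 0.0180). Of all genes, 9.23% and 10.3% passed in these fits.

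*Pdgfra* (ENSMUSG00000029231, chromosome 5, 75311994 to 75358876, plus strand), the receptor through which PDGF-A and PDGF-C act on mesenchymal cells, had 138 to 243 CPM in WT mice (median 167). In Fosl-2(Tg) mice it lay at 188 to 356 CPM (median 218). Only the highest WT mouse reached into the range of the Fosl-2(Tg) group. The log2 fold change was 0.47 (SE 0.16, 95% confidence interval 0.11 to 0.82, unadjusted p = 0.0131), with an FDR of 0.0954 by edgeR and 0.0517 by DESeq2. Its highest mouse was again the Fosl-2(Tg) male, at 356 CPM, and in females alone the log2 fold change was 0.33 (SE 0.15, FDR = 0.210 by edgeR). Annotated opposite-strand genes, *Gm42802* and *Gm42803*, overlap exons of *Pdgfra*, and opposite-strand lncRNA genes overlap exons of *Cd34*, *Vcam1*, *Ly6a*, *Pi16* and *Dpp4*. Since no strand setting of the counting is stated, reads of such a pair cannot be told apart.

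**Figure D2:**
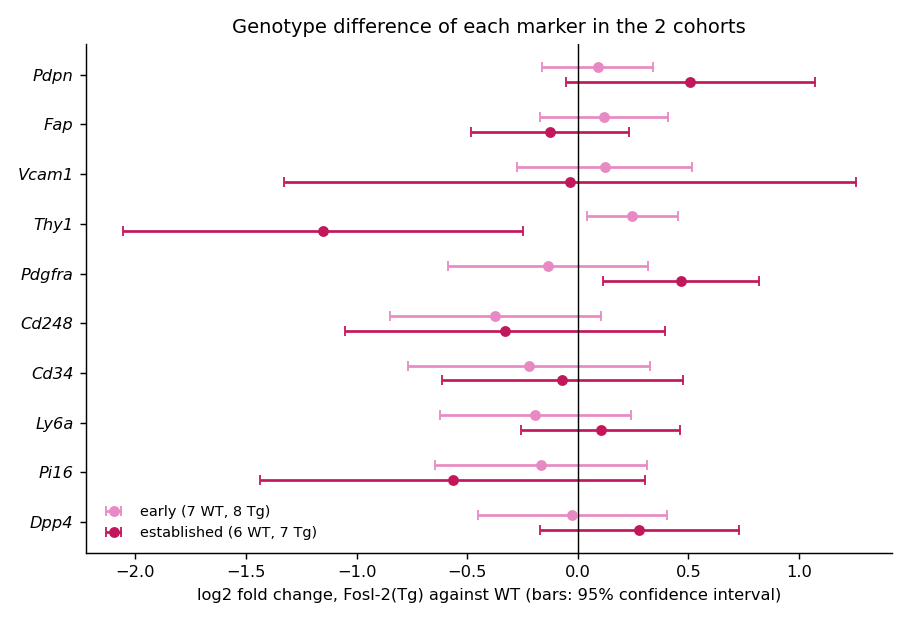
Log2 fold change of each gene, Fosl-2(Tg) against WT, in the early (light) and the established cohort (dark), with 95% confidence intervals from edgeR as bars. All early values lie between -0.37 and 0.25; in the established cohort the intervals of *Thy1* (-2.06 to -0.25) and *Pdgfra* (0.11 to 0.82) leave out 0.

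The other activation markers gave no common direction in the established cohort. *Pdpn* (ENSMUSG00000028583, chromosome 4, 142990871 to 143026143, minus strand), a mucin-like protein that binds CLEC-2 on platelets, had 21.3 to 34.2 CPM in WT (median 24.8) and 19.5 to 62.9 CPM in Fosl-2(Tg) mice (median 34.3). The WT range lay inside the Fosl-2(Tg) range. Its log2 fold change of 0.51 (SE 0.26, FDR = 0.232 by edgeR) had an interval from -0.05 to 1.07, and was 0.32 without Fosl-2(Tg) replicate 7. It was 0.24 with the replicate number as a block, a fit that also leaves out replicate 7, whose number no established WT mouse has.

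*Vcam1* (ENSMUSG00000027962, chromosome 3, 115903598 to 115923355, minus strand), a ligand of the integrin VLA-4, split the established Fosl-2(Tg) mice. Their values in replicates 1 to 7 were 1.35, 2.89, 4.86, 7.15, 1.88, 26.8 and 22.1 CPM, against 6.76 to 13.5 CPM in WT mice (median 9.32). Of the 7 mice, 4 were below every WT mouse, 2 above every WT mouse and 1 within the WT range. The log2 fold change was -0.04 (SE 0.60, 95% confidence interval -1.33 to 1.26, FDR = 0.977 by edgeR). It was not stable, with -0.53 to 0.15 when 1 mouse was left out (lowest without Fosl-2(Tg) replicate 6, highest without replicate 1), 0.12 in females and -1.05 with the replicate number as a block. The block fit also leaves out Fosl-2(Tg) replicate 7, at 22.1 CPM, so its value is not an effect of the block alone. The 2 lowest values rest on 21 and 26 reads. The 2 high mice, replicates 6 and 7, also had the highest *Pdpn* levels of the group, 53.9 and 62.9 CPM.

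*Fap* (ENSMUSG00000000392, chromosome 2, 62331286 to 62404419, minus strand), a serine protease of the cell surface, had 29.6 to 38.95 CPM in WT (median 35.1) and 18.8 to 46.6 CPM in Fosl-2(Tg) mice (median 30.7). Again the WT range lay inside that of the Fosl-2(Tg) mice. The log2 fold change was -0.13 (SE 0.17, 95% confidence interval -0.48 to 0.23, FDR = 0.653 by edgeR).

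*Cd248* (ENSMUSG00000056481, chromosome 19, 5118106 to 5120710, plus strand), a C-type lectin of stromal cells and pericytes, had 37.2 to 73.9 CPM in WT (median 52.7) and 12.6 to 79.2 CPM in Fosl-2(Tg) mice (median 45.3). The genotypes overlapped over the whole WT range. Its log2 fold change was -0.33 (SE 0.34, FDR = 0.551 by edgeR). It ran from -0.55 without Fosl-2(Tg) replicate 3 to -0.17 without replicate 5, and was -0.13 in females.

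Among the progenitor markers, *Pi16* (ENSMUSG00000024011, chromosome 17, 29536654 to 29549567, plus strand), a secreted or membrane-bound peptidase inhibitor and the leading mark of adventitial progenitors, had the widest range in established WT mice, through 1 mouse. It had 139 to 577 CPM in established WT (median 184) and 52.8 to 275 CPM in Fosl-2(Tg) mice (median 198). The Fosl-2(Tg) range reached below all WT mice, and 1 WT mouse, replicate 2, stood at 577 CPM. The log2 fold change was -0.57 (SE 0.41, FDR = 0.385 by edgeR), and without this mouse it was -0.16 (FDR = 0.812).

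*Cd34* (ENSMUSG00000016494, chromosome 1, 194621029 to 194647172, plus strand), a sialomucin of progenitor and endothelial cells, had 104 to 199 CPM in WT (median 124) and 73.0 to 219 CPM in Fosl-2(Tg) mice (median 123), a log2 fold change of -0.07 (SE 0.25, FDR = 0.883 by edgeR). *Ly6a* (ENSMUSG00000075602, chromosome 15, 74863840 to 74869880, minus strand), the Sca-1 antigen, had 103 to 197 CPM in WT (median 134) and 105 to 207 CPM in Fosl-2(Tg) mice (median 147), a log2 fold change of 0.10 (SE 0.17, FDR = 0.720 by edgeR). For both genes the ranges of the 2 genotypes covered each other for the most part. *Ly6a* belongs to a cluster of similar genes, so its counts are uncertain where reads fit several of them. *Dpp4* (ENSMUSG00000035000, chromosome 2, 62159798 to 62242576, minus strand), a dipeptidyl peptidase that trims chemokines and neuropeptides, had 26.8 to 50.4 CPM in WT (median 37.5) and 30.4 to 67.4 CPM in Fosl-2(Tg) mice (median 39.5). Its log2 fold change was 0.28 (SE 0.21, FDR = 0.411 by edgeR).

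An interaction term over all 28 mice tested whether the genotype difference itself changed with the cohort. *Thy1* was the 1 gene of the set that passed (edgeR, 16082 genes tested), where 7.43% of all genes passed, 4% in its direction. With 1 mouse left out the share of all genes ran from 4.35% (without WT early replicate 2) to 11.7% (without WT early replicate 5). Its genotype difference was more negative in the established cohort by -1.40 on the log2 scale (SE 0.42, 95% confidence interval -2.27 to -0.53, FDR = 0.0422 by edgeR). The call held by DESeq2 (FDR = 0.0146) and without the 2 established males (-1.27, FDR = 0.0123), where 10.5% and 4.5% of all genes passed. It was lost, at -1.43 to -1.27 with FDRs of 0.0504 to 0.0746 by edgeR, in 17 of 28 fits with 1 mouse left out, namely without WT early replicates 1, 2, 3, 6 or 7, Fosl-2(Tg) early replicates 2, 4, 5, 6 or 8, WT established replicates 1, 2, 3, 4 or 6, or Fosl-2(Tg) established replicates 1 or 2. For *Pdgfra* the genotype difference was more positive in the established cohort by 0.60 (SE 0.29, unadjusted p = 0.0478), which did not pass the threshold (FDR = 0.193 by edgeR). The other 8 genes had FDRs from 0.369 to 0.958 by edgeR.

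Levels were also set against each other across the cohorts within each genotype, which carries sex along with stage. These comparisons share their samples with those of genotype above. Of 10 tenocyte markers, none passed between the cohorts in WT mice and 9 were lower in established Fosl-2(Tg) mice, and their part in the values below was not tested by a fit. In WT mice, 1 of the 10 genes passed (5.81% of all genes did by edgeR). *Dpp4* fell from 48.9 to 142 CPM early (median 69.7) to 26.8 to 50.4 CPM in established tendons (median 37.5), and the ranges met at their edge. Its log2 change was -1.06 (SE 0.23, FDR = 0.00826 by edgeR). *Pdpn* (-0.65, SE 0.21, FDR = 0.0623) and *Fap* (-0.50, SE 0.17, FDR = 0.0672) stood just above the threshold by edgeR. DESeq2 called both, where 9.11% of all genes passed. With the 1 established WT male set against the early males, *Dpp4* had a log2 change of -1.08, a value of 1 mouse from which no call is read.

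In Fosl-2(Tg) mice, 4 of the 10 genes passed in the same comparison, where 47.8% of all genes did. *Thy1* fell from 237 to 311 CPM in early to 8.66 to 120.4 CPM in established Fosl-2(Tg) tendons, without overlap, a log2 change of -1.93 (SE 0.30, FDR = 1.24e-05 by edgeR). *Pdgfra* rose from 71.8 to 184 CPM to 188 to 356 CPM, likewise without overlap, by 0.98 (SE 0.20, FDR = 2.21e-04). Ranges were apart in these 2 of the 10 genes, against 14.1% of all genes. *Fap* changed by -0.75 (SE 0.16, FDR = 3.02e-04) and *Dpp4* by -0.75 (SE 0.21, FDR = 0.00522), both with overlapping ranges. For *Vcam1* the change was -0.98 (SE 0.43, FDR = 0.0606 by edgeR). The 1 established Fosl-2(Tg) male set against the early males gave -4.96 for *Thy1* and 1.55 for *Pdgfra*. This is the mouse with the lowest *Thy1* and the highest *Pdgfra* of its group, and no call is read from it. *Cd34*, *Ly6a*, *Pi16* and *Cd248* did not pass the threshold between the cohorts in either genotype, with log2 changes from -0.47 to 0.71.

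Other genes of the same programs were counted from lists taken from general knowledge of fibroblast biology. Of 20 further genes of adventitial progenitors, among them *Sema3c*, *Anxa3*, *Cd55*, *Mfap5*, *Clec3b* and *Fbn1*, none passed in the established cohort. Their median was -0.20 on the log2 scale, with 6 of 20 above 0. In the early cohort none passed either, with a median of -0.13 and 2 of 20 above 0. Of 22 further genes of activated fibroblasts, 20 could be tested in the established cohort. With Fosl-2(Tg), 3 of them rose and 3 fell, against 3.14% and 3.37% of all genes, and 8 of 20 were above 0 with a median of -0.19. The 3 with the largest changes were *Cxcl14*, a chemokine (-1.54, SE 0.43, FDR = 0.0473), *Ncam1*, an adhesion molecule (-1.11, SE 0.21, FDR = 0.0153), and *Tlr4*, a receptor of innate immunity (0.89, SE 0.21, FDR = 0.0276 by edgeR). The other 3 were *Osmr* and *Runx1*, which rose, and *Acta2*, which encodes the smooth muscle actin of myofibroblasts and fell, named here after their values were seen. Of these, *Cxcl14* also fell from early to established tendons in both genotypes, by -1.31 (SE 0.36, FDR = 0.0287) in WT and by -3.29 (SE 0.36, FDR = 1.50e-07 by edgeR) in Fosl-2(Tg) mice. None of the 20 activation genes tested early passed, where 14 of 20 were above 0 with a median of 0.21. The highest early value was that of *Lrrc15*, a leucine-rich repeat protein of activated fibroblasts (2.31, SE 0.81, unadjusted p = 0.0109, FDR = 0.657 by edgeR), named after its value was seen.

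Between the cohorts, 2 of the 20 further progenitor genes were higher and 1 lower in established than in early WT tendons, and 6 rose and 4 fell in Fosl-2(Tg) mice. Of all genes, 2.33% were higher and 3.48% lower in WT, and 25.8% higher and 22% lower in Fosl-2(Tg) mice, so the share of this list in Fosl-2(Tg) mice was near that of all genes. *Ly6c1*, a relative of *Ly6a*, fell in both genotypes (-1.05, SE 0.23, FDR = 0.00768 in WT and -1.44, SE 0.21, FDR = 7.19e-06 by edgeR in Fosl-2(Tg) mice), while *Gfpt2*, an enzyme of the hexosamine pathway, rose in both (0.81, SE 0.23, FDR = 0.0355 and 1.22, SE 0.21, FDR = 5.14e-05). Sex goes along with stage here too.

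Ligands, receptors and enzymes that act with the 10 proteins or their human counterparts formed another list, of which 25 of 30 could be tested in the established cohort. All 3 that passed were lower in Fosl-2(Tg) tendons, against 3.37% of all genes. *Pdgfa*, a ligand of the PDGF receptor alpha, had a log2 fold change of -0.73 (SE 0.16, FDR = 0.0242), while *Pdgfra* itself stood at 0.47. *Pdgfd*, a ligand of the related receptor beta, had -0.49 (SE 0.13, FDR = 0.0373). *Ada*, adenosine deaminase, listed because the human enzyme docks on human CD26, had -0.48 (SE 0.13, FDR = 0.0464 by edgeR). The genotype difference of *Pdgfa* was more negative in the established than in the early cohort (interaction -0.87, SE 0.20, FDR = 0.0124 by edgeR). The receptor of podoplanin on platelets, *Clec1b*, had a log2 fold change of 1.24 that did not pass (FDR = 0.0971), nor did *Itgb7*, which pairs with the alpha-4 integrin that binds VCAM-1 (0.67, FDR = 0.0872). Between the cohorts in Fosl-2(Tg) mice, 8 of 26 tested genes of this list rose and 6 fell, against 25.8% and 22% of all genes. Here too, sex goes along with stage. Among those that rose were *Clec1b* and *Itgb7*, by 3.12 (SE 0.47, FDR = 7.84e-06) and 1.69 (SE 0.24, FDR = 4.26e-06 by edgeR). *Npy*, a neuropeptide that CD26 cleaves, rose as well, by 1.81 (SE 0.55, FDR = 0.00852).

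**Figure D3:**
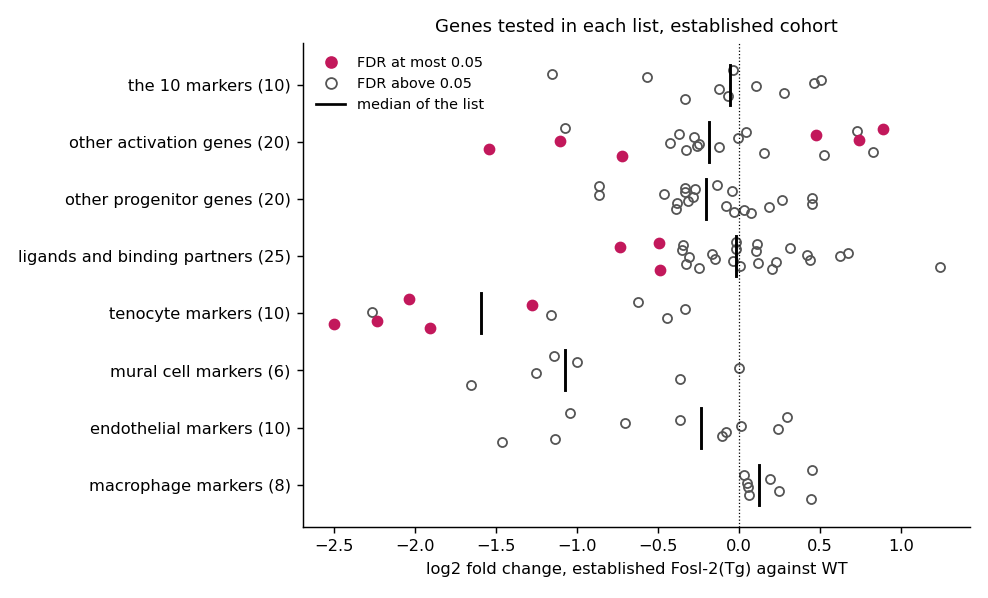
Log2 fold change of every tested gene in 8 lists, established Fosl-2(Tg) against WT, with filled points for an FDR of at most 0.05 by edgeR and a line at the median of the list; the number of genes tested stands in brackets. The 10 surface markers and the 20 further progenitor genes hold no filled point, while 5 of 10 tenocyte markers are filled, all below 0.

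Markers of other cells were measured beside these results. In established Fosl-2(Tg) tendons, 5 of 10 tenocyte markers were lower than in WT (*Scx*, *Tnmd*, *Chad*, *Col1a1* and *Col1a2*), and the median log2 fold change of the list was -1.59. The summed tenocyte markers lay at 94246 to 188492 CPM in established WT and at 3600 to 76752 CPM in established Fosl-2(Tg) mice, without overlap. The 8 macrophage markers summed to 485 to 728 CPM in WT and to 567 to 948 CPM in Fosl-2(Tg) mice, and none passed the test. All 8 were above 0, with a median log2 fold change of 0.12. Endothelial markers, of which 10 were tested and none passed, summed to 25.1 to 99.5 CPM in WT and to 28.03 to 73.0 CPM in Fosl-2(Tg) mice. Of the lymphatic markers, *Lyve1* was higher (0.68, SE 0.19, FDR = 0.0456) and *Prox1* lower (-1.67, SE 0.30, FDR = 0.0128 by edgeR). Of 6 tested mural markers none passed, but 0 of 6 were above 0, with a median of -1.07. The tested markers of lymphocytes (3), keratinocytes (3), adipocytes (2), Schwann cells (5) and red blood cells (4) held no call either, although the last had a median log2 fold change of 2.38. In the early cohort no marker of any list passed, and all 8 macrophage markers were below 0, with a median of -0.45. In the interaction, 2 of 8 macrophage, 4 of 5 red blood cell and 1 of 6 Schwann cell markers passed with a positive sign. With a negative sign, 4 of 10 tenocyte and 1 of 5 lymphatic markers passed. Of all genes, 3.43% passed with a positive and 4% with a negative sign. Between the cohorts in Fosl-2(Tg) mice, 4 of 5 red blood cell markers rose and 0 fell, against 25.8% and 22% of all genes. Skeletal muscle markers varied most between mice of a group, from 51.4 to 15184 CPM in established WT and from 37.9 to 5351 CPM in established Fosl-2(Tg) mice. None of these 8 markers passed in the established cohort, where 0 of 8 were above 0 with a median of -1.67. With a muscle score as a covariate, an alternative added after the data had been seen, *Thy1* (-1.39, FDR = 0.0416) and *Pdgfra* (0.50, FDR = 0.0434 by edgeR) both passed in the established cohort. In this fit 1737 of 15862 genes passed, against 1032 without the covariate. The part of the tenocyte, macrophage and lymphatic markers in the values of the 10 genes was not tested by a fit.

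The level of *Thy1* followed the summed tenocyte markers from mouse to mouse. Abundant genes weigh most in this sum, so it is not a measure of tenocyte content alone. *Col1a1* gave 350403 of its 543700 CPM in early WT replicate 5 and 989 of its 3600 CPM in established Fosl-2(Tg) replicate 5. The 2 established Fosl-2(Tg) mice with the lowest *Thy1*, replicates 5 and 1, also had the lowest sums, 3600 and 12335 CPM, and the 2 mice with the highest *Thy1* of that group, replicates 4 and 6, had the highest, 76752 and 63905 CPM. On log2 CPM centred on the means of the 4 groups, Pearson's r was 0.91 and Spearman's rho 0.83 (28 mice, permutation test within groups, two-sided, p = 1e-05, the smallest these permutations can give, for r and p = 2e-05 for rho). Adjusted over the 10 genes compared in this way after the data had been seen, they were 1e-04 and 2e-04. Without the 2 mice farthest from the median sum, r was 0.77. It was 0.71 in the early (n = 15, permutation p = 0.00999, adjusted p = 0.0540) and 0.96 in the established cohort (n = 13, permutation p = 2e-04, adjusted p = 0.0020). *Pdgfra* ran the other way, with r = -0.53 and rho = -0.60 (permutation p = 0.00139 and 0.00193, adjusted p = 0.00695 and 0.00965), and r = -0.44 without the 2 farthest mice. Within cohorts its r was -0.64 early and -0.61 established (adjusted permutation p = 0.0540 and 0.113), and the established value was -0.10 without the 2 farthest mice. The other 8 genes did not pass over the 28 mice (adjusted permutation p from 0.114 to 0.537 for r). Within the established cohort *Pi16* did, with r = 0.71 and rho = 0.66 (permutation p = 0.00971 and 0.0311, adjusted p = 0.0485 and 0.103), and r was 0.46 without the 2 farthest mice. Values of a library share its total and its scaling, and *Col1a1* alone took 0.142% to 27.2% of the counts of a library.

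**Figure D4:**
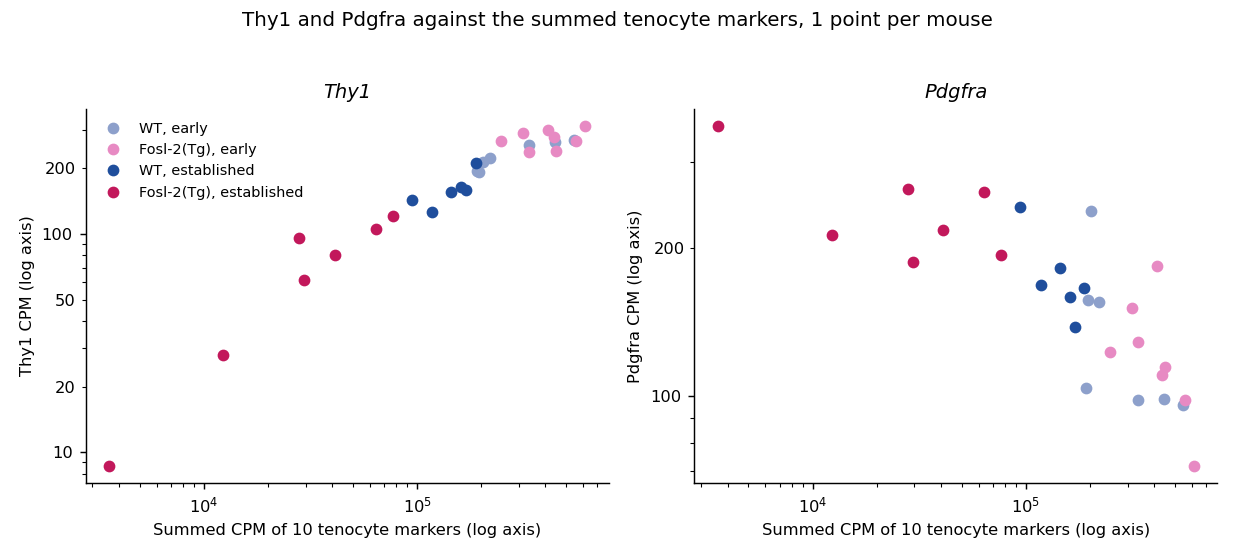
CPM of *Thy1* (left) and *Pdgfra* (right) against the summed CPM of 10 tenocyte markers, both on log axes, 1 point per mouse and colours by group. *Thy1* rises with the sum across the groups, from 8.66 CPM at a sum of 3600 CPM; *Pdgfra* is highest, at 356 CPM, in the same mouse.

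The 10 genes were then compared with each other between mice of the same group. After centring on group means, 22 of the 45 pairs correlated (Pearson's r, permutation test within groups, adjusted p of at most 0.05), all with a positive sign. The median r of the 45 pairs was 0.55. With all other genes, the median r of a gene of the set ran from -0.0013 (*Ly6a*) to 0.046 (*Fap*). The share of correlated pairs among all genes was not measured. The strongest pair was *Cd248* and *Pi16* (r = 0.90, rho = 0.93, both permutation p = 1e-05, adjusted p = 1.13e-04 and 1.50e-04, n = 28), with r = 0.85 without the 2 farthest mice and 0.90 within either cohort. *Cd34* joined them, with r = 0.84 and rho = 0.85 to *Pi16* and r = 0.78 and rho = 0.82 to *Cd248* (permutation p = 1e-05 in each, adjusted p = 1.13e-04 for r and 1.50e-04 for rho), and with r = 0.82 and 0.75 without the 2 farthest mice. *Pdpn* and *Vcam1* formed another pair, with r = 0.88 and rho = 0.78 (permutation p = 1e-05 and 5e-05, adjusted p = 1.13e-04 and 5.63e-04) and r = 0.80 without the 2 farthest mice. Within cohorts this pair had r = 0.92 in established and 0.65 in early mice (adjusted permutation p = 0.00549 and 0.0549). *Thy1* and *Pdgfra* were the 1 pair with a negative coefficient, r = -0.31 and rho = -0.35, which did not pass (permutation p = 0.0558 and 0.0696, adjusted p = 0.0837 and 0.112) and was -0.05 without the 2 farthest mice. Within the early cohort alone 9 pairs passed and within the established cohort 10, with fewer mice in each.

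**Figure D5:**
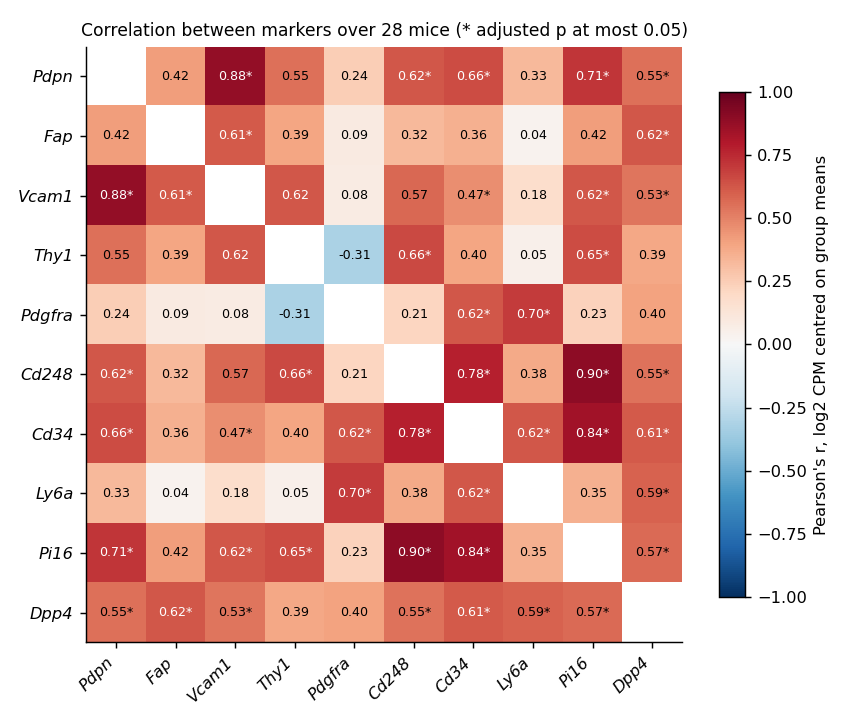
Pearson's r between each pair of the 10 genes over 28 mice, on log2 CPM centred on the means of the 4 groups; a star marks an adjusted permutation p of at most 0.05. *Cd34*, *Cd248* and *Pi16* correlate at 0.78 to 0.90, *Pdpn* and *Vcam1* at 0.88, and *Thy1* and *Pdgfra* at -0.31.

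Because *Cd34* and *Pi16* moved together, their promoters are shown, as the 250 bases before the annotated start in RefSeq (GRCm38.p6, an older build than the GRCm39 of the counts, so that positions are not comparable). RefSeq promoters were matched for 5 of the 10 genes, *Pdpn*, *Pdgfra*, *Cd34*, *Pi16* and *Dpp4*, and not for *Fap*, *Vcam1*, *Cd248*, *Thy1* and *Ly6a*. Both sequences read 5′ to 3′ on the plus strand, and capitals mark a motif that was found.
Cd34, chr1:194938571-194938820: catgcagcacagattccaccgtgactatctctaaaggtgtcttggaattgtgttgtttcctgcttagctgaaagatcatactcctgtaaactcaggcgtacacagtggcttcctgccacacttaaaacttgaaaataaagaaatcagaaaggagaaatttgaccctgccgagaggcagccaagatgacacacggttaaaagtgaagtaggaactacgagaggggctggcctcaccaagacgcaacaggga
Pi16, chr17:29318632-29318881: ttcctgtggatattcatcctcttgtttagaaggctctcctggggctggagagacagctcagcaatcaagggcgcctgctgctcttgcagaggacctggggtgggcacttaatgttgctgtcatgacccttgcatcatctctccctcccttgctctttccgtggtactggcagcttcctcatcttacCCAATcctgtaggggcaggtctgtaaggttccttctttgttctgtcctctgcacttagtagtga

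Motifs of 5 kinds were searched on both strands of the 250 bases. The AP-1 site, TGACTCA or TGAGTCA, to which FOSL2 dimers are known to bind, was in 0 of the 5 promoters and in 4.46% of all 32851. The cAMP response element TGACGTCA was in 0 of the 5 and in 1.55% of all. CCAAT or ATTGG was in 1 of the 5, that of *Pi16*, where it begins 64 bases before the start, and in 33.8% of all. TATAAA or TTTATA was in 1 of the 5, that of *Dpp4*, and in 12.4% of all, and the GC box GGGCGG or CCGCCC in 0 of the 5 and in 32.7% of all. GC content was 46.4% for *Cd34* and 52.4% for *Pi16*, against a median of 52.4% over all. These letters describe the windows shown and no binding was measured.

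For each gene, the 3 genes with the most similar pattern over the 28 mice were listed by Pearson's r on centred log2 CPM, as a description without a test, among 16082 genes. *Thy1* was closest to *Col15a1* (r = 0.97), *Col6a1* (0.95) and *Tmem119* (0.95). Nearest to *Pi16* were *Fbn1* (0.93), *Cd248* (0.90) and *Sdk1* (0.86), and *Cd34* had *Emilin2* (0.91), *Fbn1* (0.89) and *Arnt2* (0.89) beside it. *Fbn1*, which encodes the microfibril protein fibrillin-1, was thus next to both progenitor markers. *Pdgfra* was closest to *Ebf1* (0.91), *Tmod3* (0.88) and *1700019D03Rik* (0.87), and *Vcam1* to *Lgals1* (0.90), *Ctsk* (0.89) and *Pdpn* (0.88). The nearest gene of *Ly6a* was its neighbour in the same gene family, *Ly6c1* (0.93), ahead of *Anxa4* (0.89) and *Cab39l* (0.85). *Cd248* had *Arsi* (0.89) and *Duox1* (0.89) behind *Pi16*, and *Pdpn* had *Ctsb* (0.84) and *P4ha3* (0.84) behind *Vcam1*. For *Fap* they were *Nudt5* (0.85), *Ttc3* (0.84) and *Usp46* (0.83), and for *Dpp4* *Rarres2* (0.86), *Klhl13* (0.86) and *Gpx8* (0.84).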

How the data were processed

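Per the labels and the study's methods, RNA of tail tendon fascicles was depleted of ribosomal RNA, sequenced, aligned to GRCm39 with STAR and counted per gene with featureCounts. The deposited values are raw counts, 1 file per mouse. How multimapping reads and strand were handled is not given in the sources used here. Genes were named with GENCODE M39 (25505 of 25719).

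Counts were tested with edgeR 4.0.16 in R 4.3.3 (filterByExpr with a minimum count of 10 and a minimum total of 15, TMM scaling, glmQLFit and glmQLFTest), within each cohort for genotype, and over 4 groups for the interaction and for stage. P-values were adjusted after Benjamini-Hochberg over all genes tested, with a threshold of 0.05. DESeq2 1.42.0 and the other settings named in the closing section were alternatives. Correlations used log2 CPM with a prior count of 2, centred on group means, and 100000 permutations within groups, two-sided. The 10 genes and all lists were chosen with earlier results of these data known. By rule, all 10 genes were named in every comparison, and from each list up to 3 genes past the threshold with the largest change. *Osmr*, *Runx1*, *Acta2*, and the partners *Clec1b* and *Itgb7* in the established cohort, were named after their values were seen. No pair of libraries agreed within sampling noise (smallest chi-square per degree of freedom within a group 7.42). Replicate numbers are shared between genotypes. In the early cohort, all 7 same-numbered pairs deviated together from their group means (r from 0.129 to 0.363), and none correlated best with its own number. The edgeR fits were first tested on simulated data.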

Additional observations from a re-analysis of the deposited data

Results flagged for a closer look

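In 3 of the 40 sets of values tested (10 genes in 4 groups), 1 mouse lay far from the others of its group. For independent and normally distributed values, chance alone gives about 1 in 20. The values were CPM and the sets are not independent (*Cd34* and *Pdgfra*, r = 0.92 within the early cohort), so 3 of 40 is not read as an excess. *Cd34* was at 249.3 CPM in early WT replicate 7, against 80.2 to 139 CPM in the other 6 mice. *Pdgfra* was at 238 CPM in the same mouse, against 95.7 to 157 CPM in the others. *Pi16* was at 577 CPM in established WT replicate 2, against 283 CPM in the next highest mouse of its group. The genotype difference of *Thy1* differed between the cohorts, by -1.40 on the log2 scale (interaction term, FDR = 0.0422 by edgeR).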

How the results depend on the processing

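In the early cohort none of the 10 genes passed under any alternative run. In the established cohort 1 gene, *Thy1*, passed with all libraries in 1 fit, where 10.3% of all genes did. It was also the 1 gene that passed with sex as a covariate, where 9.23% of all genes did. With the muscle score as a covariate, chosen after seeing the data, 2 of the 10 genes passed, where 1737 of 15862 genes did. The FDR of *Thy1* in the established cohort ran from 0.0180 to 0.125 over the alternatives (edgeR, and DESeq2 in 1 alternative). It ran from 0.0541 to 0.184 by edgeR with 1 mouse left out. For the interaction, 0 of the 10 genes passed without a low count filter (*Thy1*, FDR = 0.0537 by edgeR), where 3.97% of all genes did. With 1 mouse left out 0 to 1 passed, where 4.35% to 11.7% of all genes did. Between the cohorts, WT mice gave 3 genes with DESeq2, where 9.11% of all genes passed. Of the 45 pairs, 9 correlated within the early and 10 within the established cohort. The causes of these differences were not tested. Each cohort alone holds fewer mice. The fits in males only hold 1 established mouse per genotype, which was assumed to vary like the rest.

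Signs reversed in females only for *Cd34* (0.013) and *Vcam1* (0.12) in the established cohort, and in males only for *Cd34* between cohorts in WT (-0.046) and for *Cd34* (-0.59), *Cd248* (-1.53) and *Pi16* (-1.39) between cohorts in Fosl-2(Tg) mice. With 1 mouse left out, signs also reversed within these ranges: early *Cd34* -0.38 to 0.0051, *Dpp4* -0.10 to 0.17 and *Pdgfra* -0.24 to 0.051; established *Cd34* -0.23 to 0.050 and *Vcam1* -0.53 to 0.15; interaction *Cd34* -0.084 to 0.31, *Cd248* -0.19 to 0.19, *Vcam1* -0.67 to 0.016 and *Pi16* -0.56 to 0.013. The values in males only rest on 1 established mouse, and no call is read from them.

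With the replicate number as a block, 0 of the 10 genes passed in either cohort, so it changed no call. These fits kept only numbers present in both genotypes. They thus left out Fosl-2(Tg) replicate 8 in the early and replicate 7 in the established cohort. Of 6 same-numbered established pairs, 4 correlated over 0.1 (-0.22 to 0.69) and 2 best with their own number. Whether same-numbered mice share more than a number was not tested. The block gave *Thy1* -1.55 (FDR = 0.0765 by edgeR) and *Vcam1* -1.05 in the established cohort. Low depth limits *Vcam1* most, with 21 reads in 1 library.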
